A study of Rattus norvegicus with 138 samples.

Results

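Acta2, Myh11, Tagln, Pdgfrb, Rgs5, Cspg4, Des, Mylk and Cnn1 are genes by which pericytes and vascular smooth muscle cells are recognised. These 9 genes were taken by their symbols from tables of 32883 genes, and all 9 were found in the tables of the nucleus of the solitary tract (NTS), the caudal ventrolateral medulla (CVLM) and the rostral ventrolateral medulla (RVLM). A filter on low values left 7 of the 9 in each region, and Acta2 and Cnn1 did not pass it in any region. Female spontaneously hypertensive rats (SHRs) were compared with female Wistar–Kyoto (WKY) rats, the normotensive strain, at 5 ages from 8 to 24 wk. There were 5 SHRs and 5 WKY rats at 8 wk, 5 and 4 at 10 wk, and 6 and 3 at each of 12, 16 and 24 wk. No rat was treated, and neither strain carried a transgene or a deletion made for the study. Each of the 46 rats gave 1 library per region from punches of frozen brainstem sections, so a punch held neurons, glia and whatever vessels crossed it.

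Pericytes lie on the outside of capillaries, within the basement membrane of the endothelium, and smooth muscle cells form the wall of arterioles and arteries. Together they are called mural cells, and in the brain they set the diameter of small vessels and take part in the blood-brain barrier. Contraction starts when calcium and calmodulin activate myosin light chain kinase, which phosphorylates the light chain of smooth muscle myosin so that the myosin pulls on actin filaments. Endothelial cells recruit mural cells by secreting platelet-derived growth factor B, which binds the receptor encoded by Pdgfrb. Expression is given as CPM, counts scaled to library sizes that were normalized with TMM. CPM is not corrected for transcript length, so it compares a gene between libraries and does not rank the genes.

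Libraries held between 5904570 and 17889406 counts (median 10143018). The 15 other pericyte markers of a list of known markers summed to 179 to 436 CPM per library, so mural transcripts were detected in every punch, and the neuron markers summed to 2818 CPM or more. Catecholamine neuron markers, which mark these autonomic regions, summed to 166 to 428 CPM in the NTS, 187 to 465 CPM in the CVLM and 32.5 to 332 CPM in the RVLM. One RVLM library, WKY replicate 3 at 8 wk, stood apart, with the lowest TMM factor (0.797) and the fewest detected genes (15562) of all libraries. Its 81 ribosomal protein genes were at a mean of 6.98 on the log2 CPM scale, the highest of all libraries, and RVLM results at 8 wk are therefore given with and without it. In the NTS, choroid plexus markers were high in 4 WKY libraries, replicates 2 (4589 CPM) and 3 (834 CPM) at 12 wk and replicates 5 (2011 CPM) and 2 (251 CPM) at 8 wk. Without these 4, a fit added after the data were seen, the calls over the ages stayed for Tagln (1.06, edgeR adjusted p = 4.38e-09) and Mylk (-1.31, edgeR adjusted p = 2.64e-09) and that for Rgs5 was lost (0.22, edgeR adjusted p = 0.245), with 1 WKY rat left at 12 wk. Library names carry a 1 or a 2, whose meaning is not given in the sources used here. All libraries at 10 wk carry a 2, as do 15 others. At 8 wk, WKY replicates 3 to 5 carry a 2 and the SHRs a 1, so at this age strain and number can be told apart only with the remaining 2 WKY rats.

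Strains were compared first over all ages. Tagln was higher and Mylk was lower in SHRs in the NTS, CVLM and RVLM. The log2 fold change of SHR over WKY for Tagln was 1.12, 0.61 and 0.44 for NTS, CVLM and RVLM. For Mylk it was -1.29, -1.42 and -0.70. Rgs5 was also higher in SHRs in the NTS (0.27) and the RVLM (0.26), and Myh11 in the RVLM (0.46). At an adjusted p under 0.05, 3 of the 7 genes were called in the NTS, where 11.2% of all tested genes were, 2 of 7 in the CVLM (12.3% of all) and 4 of 7 in the RVLM (10.8% of all). The median log2 fold change of the 7 genes was 0.23, 0.18 and 0.26 in this order, against 0.00974, -0.00295 and 0.00878 over all tested genes. All adjusted p-values come from edgeR's quasi-likelihood test with Benjamini-Hochberg adjustment over all genes tested in a region, unless another tool is named. In punches of tissue, fewer cells of a type and less RNA per cell cannot be told apart.

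**Figure D1:**
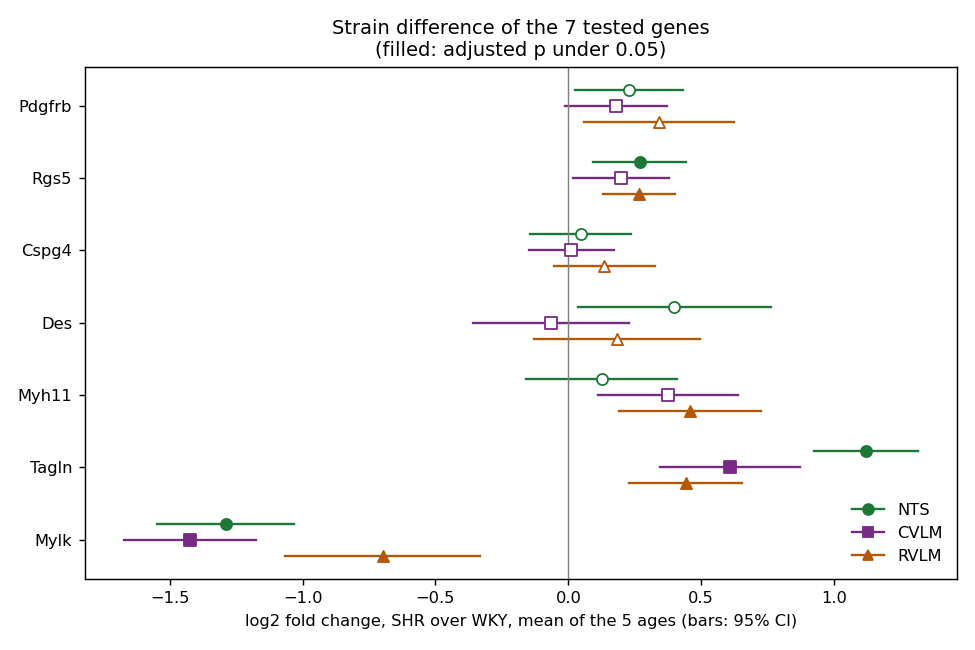
Log2 fold change of SHRs over WKY rats, as the mean of the 5 ages, for the 7 tested genes, with 1 symbol per region, 95% confidence intervals as bars and filled symbols where the adjusted p was under 0.05. Tagln lies to the right of 0 and Mylk to the left in all 3 regions, with the largest values of 1.12 in the NTS for Tagln and -1.42 in the CVLM for Mylk.

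Tagln encodes transgelin (SM22), an actin-binding protein that is abundant in smooth muscle. In the NTS at 8 wk, its values in the 5 WKY rats were 8.02, 8.07, 6.52, 5.69 and 7.45 CPM, and in the 5 SHRs 15.4, 22.8, 23.2, 18.0 and 25.8 CPM. The lowest SHR was thus above the highest WKY rat, and the groups of 3.89% of all tested genes did not overlap at this age. At 10 wk, WKY rats had 10.5, 4.27, 5.78 and 7.30 CPM and SHRs 18.0, 17.9, 13.5, 13.3 and 16.0 CPM, again without overlap, as for 7.68% of all tested genes. At 12 wk, WKY rats had 16.9, 13.2 and 8.74 CPM, and the 6 SHRs ran from 14.0 to 31.5 CPM (median 18.9). At this age, the highest WKY rat lay among the SHRs. At 16 wk, WKY rats had 13.2, 11.0 and 8.91 CPM against 19.8 to 25.6 CPM in SHRs (median 23.1), and at 24 wk 12.9, 14.1 and 10.2 CPM against 22.7 to 32.5 CPM (median 27.8). At both of these ages, every SHR was above every WKY rat, and the groups of 6.48% and 6.34% of all tested genes did not overlap.

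The strain difference of Tagln in the NTS was called at 4 of the 5 ages. The log2 fold change was 1.56 (SE 0.20, edgeR adjusted p = 2.26e-07) at 8 wk, when 5.79% of all tested genes were called. It was 1.18 (0.21, adjusted p = 0.000147) at 10 wk with 4.44% of all genes called, 1.06 (0.22, adjusted p = 0.00287) at 16 wk with 1.73%, and 1.16 (0.23, adjusted p = 0.000785) at 24 wk with 2.46%. At 12 wk it was 0.65 (0.22, adjusted p = 0.116; 3.1% of all genes called). Over the ages it was 1.12 (SE 0.097, edgeR adjusted p = 2.43e-12), a 2.17-fold higher level. Without the libraries that carry a 2 outside 10 wk, the difference at 8 wk was 1.39 (edgeR adjusted p = 0.00201) and that over the ages 1.10 (edgeR adjusted p = 3.07e-10). At 16 wk, the call rested on WKY replicate 3, without which the log2 fold change was 0.93 (edgeR adjusted p = 0.0706).

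In the CVLM, Tagln at 8 wk was 11.0, 20.7, 10.9, 10.7 and 11.1 CPM in WKY rats and 26.0, 24.4, 31.1, 29.8 and 18.2 CPM in SHRs. The groups overlapped only through WKY replicate 2, at 20.7 CPM, and the SHR at 18.2 CPM. With edgeR's fit of all ages, this was the only age with a call for Tagln in the CVLM (1.01, SE 0.27, edgeR adjusted p = 0.014; 7.64% of all genes called). The call was lost without the number-2 libraries (0.74, edgeR adjusted p = 0.747) and without WKY replicate 4 (0.95, edgeR adjusted p = 0.051). At 24 wk, WKY rats had 15.8, 19.3 and 19.3 CPM and SHRs 24.7 to 34.5 CPM (median 30.2), which did not overlap. Nor did the groups of 12.2% of all tested genes at this age. The log2 fold change of Tagln was 0.73 (SE 0.30, edgeR adjusted p = 0.138). It was 1.28 (edgeR adjusted p = 0.00529) with the ribosomal protein level as a covariate and 0.78 (edgeR adjusted p = 0.0201) in a fit of this age alone, both called. Over the ages the log2 fold change was 0.61 (SE 0.13, edgeR adjusted p = 0.000616). In the RVLM, Tagln was between 7.85 and 27.7 CPM in the 18 WKY libraries (median 13.6) and between 9.89 and 30.9 CPM in the 28 SHR libraries (median 20.8). Its strain difference over the ages was 0.44 (SE 0.11, edgeR adjusted p = 0.00262) and 0.46 (edgeR adjusted p = 0.00172) without the RVLM library that stood apart. In this fit no single age was called in the RVLM, although at 24 wk the WKY rats (10.5, 14.8 and 12.8 CPM) were all below the SHRs (19.1 to 23.6 CPM, median 20.9). At that age in the RVLM, the groups of 9.25% of all tested genes did not overlap. A fit of 24 wk alone called Tagln (0.68, edgeR adjusted p = 0.0486).

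The Tagln difference was larger in the NTS than in the RVLM. The difference between these strain effects, tested in 1 fit over the libraries of all 3 regions with the rat as a block, was 0.66 on the log2 scale (SE 0.14, edgeR adjusted p = 0.00171), in a comparison where 1.82% of all 14043 genes were called. Tagln was the only 1 of the 7 genes with a call in edgeR. Over the 10 alternatives run for this result, the value ran from 0.55 to 0.73 and the adjusted p from 0.00165 to 0.0144. The NTS and CVLM differed by 0.45 (SE 0.14, edgeR adjusted p = 0.179; 0.449% of all genes called), and the CVLM and RVLM by 0.21 (adjusted p = 1; 0.32% called).

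The level of ribosomal protein genes, which differs between libraries of 1 group, moved with Tagln. Across the 46 libraries of a region, centred on their groups of strain and age, the Pearson correlation was 0.60 for the NTS, 0.58 for CVLM and 0.25 for RVLM. The libraries share their depth and RNA preparation between both measures. At 8 wk in the NTS, ribosomal protein genes were 0.44 higher in SHRs on the log2 scale, whereas at 24 wk they were 0.17 lower. With this level as a covariate, the Tagln difference over the ages was 1.12 for the NTS, 0.73 for CVLM and 0.47 for RVLM, and remained called in all 3.

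**Figure D2:**
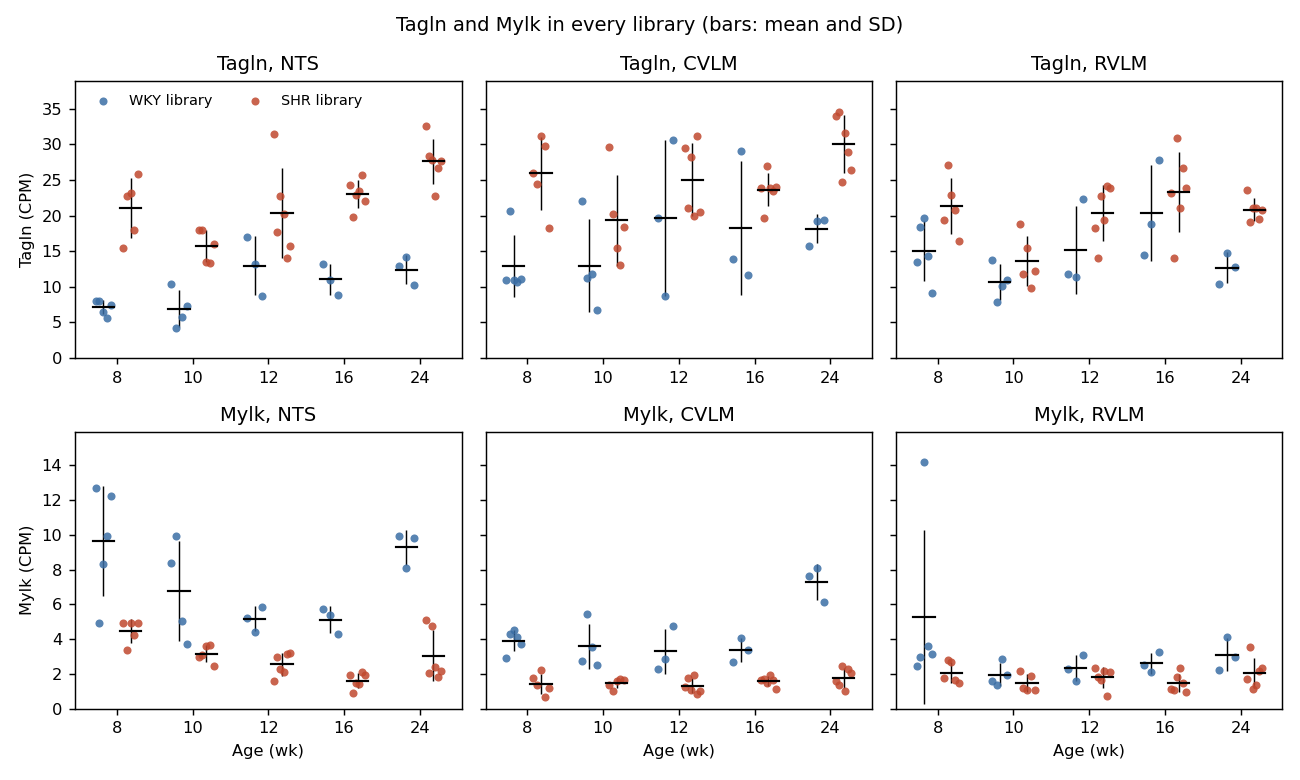
Tagln (top) and Mylk (bottom) in CPM against age in weeks, in the NTS, CVLM and RVLM, with 1 point per library and the mean and SD of each group in black. Tagln of SHRs lies above all WKY rats in the NTS at 8, 10, 16 and 24 wk, Mylk of SHRs lies below all WKY rats in the CVLM at every age, and the RVLM library that stands apart is the single WKY point at 14.2 CPM of Mylk at 8 wk.

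Mylk encodes myosin light chain kinase, the enzyme that starts smooth muscle contraction, and unlike the contractile proteins it is also made by endothelial cells and other cells. In the NTS at 8 wk, WKY rats had 12.7, 4.93, 8.32, 9.92 and 12.2 CPM of Mylk and SHRs 4.93, 3.36, 4.93, 4.25 and 4.91 CPM. A single WKY rat reached down to the SHRs. At 10 wk, WKY rats had 8.35, 9.92, 5.07 and 3.71 CPM and SHRs 2.96, 3.12, 3.61, 3.65 and 2.48 CPM. At 12 wk, WKY rats had 5.22, 4.41 and 5.86 CPM against 1.60 to 3.20 CPM in SHRs (median 2.63). From 10 wk on, no SHR reached the lowest WKY rat in the NTS, where 7.68%, 5.7%, 6.48% and 6.34% of all genes did not overlap at 10, 12, 16 and 24 wk. At 16 wk, WKY rats had 5.72, 5.40 and 4.27 CPM against 0.891 to 2.11 CPM (median 1.70), and at 24 wk 9.90, 8.11 and 9.81 CPM against 1.83 to 5.08 CPM (median 2.29).

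The log2 fold change of Mylk in the NTS was -1.10 (SE 0.27, edgeR adjusted p = 0.00813) at 8 wk, -1.09 (0.27, adjusted p = 0.012) at 10 wk, -1.65 (0.31, adjusted p = 0.000408) at 16 wk and -1.60 (0.29, adjusted p = 0.000217) at 24 wk. At 12 wk it was -1.004 (0.30, adjusted p = 0.0517) and just missed the threshold. Over the ages Mylk was at 0.409 of the WKY level (log2 fold change -1.29, SE 0.13, edgeR adjusted p = 1.19e-10). Calls at single ages were less firm than that over the ages. Without the number-2 libraries the 8-wk difference was -0.97 (edgeR adjusted p = 0.176), and the 10-wk call was lost without WKY replicate 1 (-0.98, edgeR adjusted p = 0.063) or replicate 2 (-0.85, edgeR adjusted p = 0.0997).

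In the CVLM, Mylk did not overlap between the strains at any age. At 8 wk, WKY rats had 2.94, 4.30, 4.50, 4.11 and 3.71 CPM and SHRs 1.77, 1.36, 2.21, 0.662 and 1.18 CPM. At 10 wk, the values were 2.77, 5.43, 3.58 and 2.54 CPM against 1.39, 1.00, 1.59, 1.71 and 1.64 CPM. Among all tested genes, 4.68% did not overlap at 8 wk and 6.73% at 10 wk. At 12 wk, WKY rats had 2.26, 2.87 and 4.75 CPM against 0.868 to 1.94 CPM in SHRs (median 1.16), and at 16 wk 2.67, 4.05 and 3.35 CPM against 1.12 to 1.97 CPM (median 1.64). The distance was widest at 24 wk, when WKY rats had 7.65, 8.07 and 6.12 CPM and SHRs 1.00 to 2.45 CPM (median 1.83). Genes without overlap were 5.2% of all at 12 wk, 5.86% at 16 wk and 12.2% at 24 wk.

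All 5 ages were called for Mylk in the CVLM, with log2 fold changes between -1.06 at 16 wk (SE 0.28, edgeR adjusted p = 0.0279) and -2.02 at 24 wk (SE 0.27, edgeR adjusted p = 5.57e-07). The share of all genes called was 2.27% at 16 wk and 7.13% at 24 wk. Over the ages Mylk was at 0.373 of the WKY level (log2 fold change -1.42, SE 0.12, edgeR adjusted p = 1.57e-12). Leaving out WKY replicate 3 ended the call at 12 wk (-0.98, edgeR adjusted p = 0.138), and leaving out WKY replicate 2 (-0.91, edgeR adjusted p = 0.268), WKY replicate 3, SHR replicate 3 or SHR replicate 6 that at 16 wk. No single library ended the calls at 8, 10 and 24 wk, and the call at 8 wk was lost without the number-2 libraries (-1.27, edgeR adjusted p = 0.0507).

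In the RVLM, the Mylk difference was smaller and rested in part on 1 library. At 8 wk, WKY rats had 2.46, 2.98, 14.2, 3.62 and 3.15 CPM and SHRs 1.76, 2.81, 2.70, 1.66 and 1.48 CPM. The value of 14.2 CPM belongs to the RVLM library that stood apart, and the other WKY rats overlapped with the SHRs. The log2 fold change at 8 wk was -1.31 (SE 0.37, edgeR adjusted p = 0.0217; 9.78% of all genes called) with this library and -0.57 (edgeR adjusted p = 0.309) without it. Leaving out SHR replicate 4 or 5 at 8 wk also ended this call, with values of -1.21 and -1.20 (edgeR adjusted p = 0.0544 and 0.0624). Over the ages it was -0.70 (SE 0.18, edgeR adjusted p = 0.00644) with the library and -0.55 (edgeR adjusted p = 0.00715) without it. The Mylk strain difference in the NTS minus that in the RVLM was -0.62 (SE 0.21, edgeR adjusted p = 0.121), and for the CVLM minus the RVLM it was -0.75 (SE 0.22, edgeR adjusted p = 0.163), neither of which was called.

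Myh11 encodes the smooth muscle myosin heavy chain, the motor that the kinase switches on and a marker of mature smooth muscle. In the RVLM at 8 wk, its values were 14.9, 5.86, 5.29, 7.31 and 10.1 CPM in WKY rats and 9.70, 12.9, 17.8, 18.5 and 19.4 CPM in SHRs. 4 of the 5 SHRs lay above all but the highest WKY rat, and the groups overlapped. At 24 wk, WKY rats had 6.23, 8.81 and 11.1 CPM and SHRs 13.7 to 17.2 CPM (median 13.9), without overlap, as for 9.25% of all tested genes. In the CVLM at 8 wk, WKY rats had 10.0, 7.17, 4.73, 5.65 and 7.03 CPM and SHRs 14.6, 12.4, 9.56, 14.7 and 10.0 CPM. The calls at 8 wk, of 0.85 in the RVLM (SE 0.27, edgeR adjusted p = 0.0393) and 0.83 in the CVLM (SE 0.27, edgeR adjusted p = 0.0478), were lost without the number-2 libraries (0.58 and 0.53), and in the RVLM also without the library that stood apart (0.71, edgeR adjusted p = 0.134). The CVLM call was also lost without the 2 libraries with conflicting ages (0.90, edgeR adjusted p = 0.0813). Nor did it hold with size factors in place of TMM (edgeR adjusted p = 0.0512), without the filter (0.0695) or in a fit of this age alone (0.0756). Leaving out 1 library ended the RVLM call in 6 of 46 fits and the CVLM call in 22 of 46 (highest edgeR adjusted p = 0.149). Over the ages Myh11 was 0.46 higher in SHRs in the RVLM (SE 0.13, edgeR adjusted p = 0.0164; 0.43 without the library that stood apart, adjusted p = 0.0212). The call was lost without the number-2 libraries (0.37, edgeR adjusted p = 0.0813) and with the replicate number as a block (0.42, edgeR adjusted p = 0.0574). It was 0.37 higher in the CVLM (SE 0.13, edgeR adjusted p = 0.0514) and 0.13 higher in the NTS (SE 0.14, adjusted p = 0.719), where neither passed. Myh11 ran opposite to the ribosomal protein level within groups (r = -0.40 for the NTS, -0.35 for CVLM and -0.64 for RVLM), and with that covariate its RVLM difference over the ages was 0.36 (edgeR adjusted p = 0.0219).

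Rgs5 encodes a regulator of G protein signalling by which brain pericytes are often recognised. In the RVLM at 8 wk, WKY rats had 11.6, 12.4, 11.1, 10.5 and 10.6 CPM and SHRs 13.0, 16.5, 16.2, 16.6 and 16.1 CPM. All SHRs were above all WKY rats, as for 4.91% of all tested genes at this age, and the log2 fold change was 0.48 (SE 0.14, edgeR adjusted p = 0.0219). It was 0.46 (edgeR adjusted p = 0.0627) without the library that stood apart, 1 of 4 libraries whose omission ended the call, and 0.35 (edgeR adjusted p = 0.584) without the number-2 libraries. Over the ages Rgs5 was 0.26 higher in the RVLM (SE 0.067, edgeR adjusted p = 0.0051), 0.27 higher in the NTS (SE 0.087, edgeR adjusted p = 0.0351) and 0.20 higher in the CVLM (SE 0.090, edgeR adjusted p = 0.168). The NTS call was lost without the 4 libraries with high choroid plexus markers and in 7 of the 46 fits that left out 1 library (WKY replicate 3 at 16 wk gave the highest adjusted p, 0.0821). As with Tagln, Rgs5 followed the ribosomal protein level within groups (r = 0.50, 0.39 and 0.33), and with that covariate the difference was 0.26 for the NTS, 0.25 for CVLM and 0.29 for RVLM, each called (adjusted p = 0.0156, 0.0469 and 0.00124).

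The receptor gene Pdgfrb, which mural cells need for recruitment to vessels, was not called over the ages in any region (0.23, 0.18 and 0.34 in the NTS, CVLM and RVLM; edgeR adjusted p = 0.157, 0.27 and 0.13). At 24 wk in the CVLM, WKY rats had 6.03, 9.97 and 6.12 CPM and SHRs 7.74 to 16.7 CPM (median 12.6). Of the 6 SHRs, 5 were above all WKY rats and 1, at 7.74 CPM, lay below the highest, and the log2 fold change of 0.74 (SE 0.23, edgeR adjusted p = 0.0404) fell to 0.59 (edgeR adjusted p = 0.231) with the ribosomal protein level as a covariate. That level was 0.60 lower in SHRs in the CVLM at 24 wk, and its groups did not overlap. The call was also lost in 7 of the 46 fits without 1 library, among them those without WKY replicate 1 (0.64, edgeR adjusted p = 0.208) or 3 (0.63, edgeR adjusted p = 0.223) at 24 wk. In the RVLM at 24 wk, WKY rats had 6.48, 8.81 and 11.5 CPM and SHRs 12.0 to 19.9 CPM (median 14.5), without overlap, with a log2 fold change of 0.79 (SE 0.34, edgeR adjusted p = 0.264). At this age, the 3 genes without overlap in the RVLM were Tagln, Pdgfrb and Myh11, and 9.25% of all tested genes did not overlap. The ribosomal protein level, against which Pdgfrb (r = -0.55) and Myh11 (r = -0.64) ran within groups, was 0.50 lower in SHRs in these libraries without overlap. With that level as a covariate, none of the 3 genes was called at this age in the RVLM, as in the main fit. The part of that level in the lack of overlap was not tested.

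Cspg4 encodes the NG2 proteoglycan, which pericytes share with oligodendrocyte precursors, and Des encodes desmin, the intermediate filament of muscle cells and pericytes. Cspg4 differed least between the strains, by 0.05 in the NTS (95% confidence interval -0.14 to 0.24), 0.01 in the CVLM (-0.15 to 0.17) and 0.14 in the RVLM (-0.06 to 0.33), and was not called at any age. Des was low, at 0.451 to 5.14 CPM, and was not called either, with 0.40 in the NTS (SE 0.18, edgeR adjusted p = 0.175), -0.07 for CVLM and 0.18 for RVLM. At 8 wk in the NTS, Des was 1.34, 1.70, 0.899, 1.29 and 1.33 CPM in WKY rats and 2.27, 1.99, 2.04, 1.96 and 5.14 CPM in SHRs, without overlap, as for 3.89% of all genes. In the CVLM at 10 wk, where 6.73% of all genes did not overlap, Des did not overlap in the opposite direction. WKY rats had 2.49, 2.55, 1.95 and 1.69 CPM and SHRs 1.27, 1.40, 1.34, 0.742 and 1.48 CPM. Neither difference was called (1.04 and -0.79, edgeR adjusted p = 0.0792 and 0.261).

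**Figure D3:**
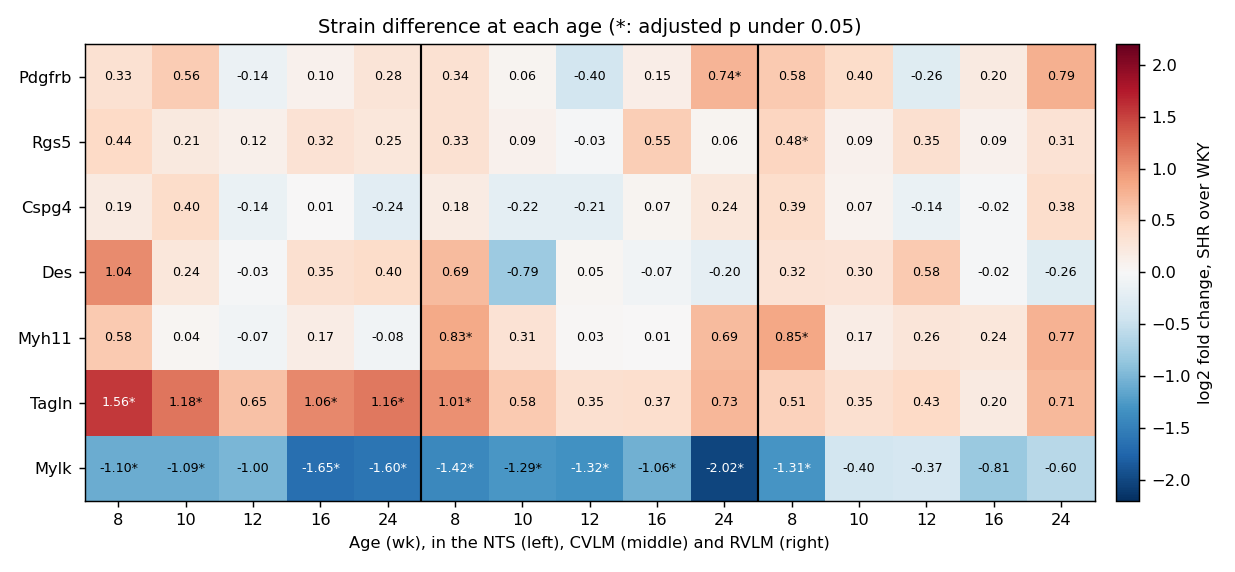
Log2 fold change of SHRs over WKY rats for the 7 tested genes (rows) at each age in weeks (columns) in the NTS, CVLM and RVLM from left to right, with red for higher and blue for lower in SHRs and an asterisk where the adjusted p was under 0.05. Mylk is lower at all 15 combinations of region and age, Tagln is higher at all 15, and each of the other genes changes sign among them. Within a region, Myh11 is higher at all 5 ages in the CVLM and RVLM, and Rgs5 in the NTS and RVLM.

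Over the 5 ages together, 8 calls were made in the NTS, all for Tagln and Mylk, 8 in the CVLM and 3 in the RVLM. Of all tests on all genes, 3.5%, 4.57% and 3.53% were called in these regions. In the CVLM, 3.18% of all genes were called at 10 wk and 2.62% at 12 wk, and in the RVLM, where no member was called after 8 wk, 2.3%, 1.7%, 1.65% and 2.24% at 10, 12, 16 and 24 wk. At these RVLM ages, 0, 1, 0 and 3 of the 7 members had an unadjusted p under 0.05 with edgeR. The groups of no member were free of overlap in the RVLM at 10, 12 and 16 wk, where those of 5.98%, 4.31% and 4.18% of all genes were. Tagln was higher in SHRs and Mylk lower at each of the 15 combinations of region and age, whether called or not. Whether the strain difference changed with age was tested with an interaction of 4 degrees of freedom. No member was called for it with edgeR. An unadjusted edgeR p under 0.05 was found for 0, 2 and 0 of 7 in the NTS, CVLM and RVLM. With edgeR, 2 genes in all were called for the NTS (0.0145%), 3 for CVLM (0.0224%) and 1 for RVLM (0.00746%). DESeq2 gave an adjusted p for only 9 of the 21 member results, none of them called, so the others could not be called. DESeq2 called 11 genes in all for the NTS, 67 for CVLM and 3 for RVLM, and gave no adjusted p for 5883, 7798 and 1.

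The ages were also compared within each strain, 24 against 8 wk. In SHRs, no member was called with edgeR or DESeq2 in the NTS, CVLM or RVLM, where 0.232%, 0.649% and 0.358% of all genes were, and 2, 1 and 1 of 7 had an unadjusted p under 0.05. In WKY rats, no member was called with edgeR in the NTS (0.464% of all genes) or the RVLM (0.179%), where 1 of 7 had an unadjusted p under 0.05 in each and DESeq2 called 1 and 0. By contrast, 3 of 7 were in the CVLM, where 13.7% of all genes were called. Mylk was 0.89 higher at 24 wk (SE 0.27, edgeR adjusted p = 0.0253), Des 1.24 higher (SE 0.35, edgeR adjusted p = 0.0157) and Pdgfrb 0.81 lower on the log2 scale (-0.81, SE 0.24, edgeR adjusted p = 0.0206). The Des values were 1.18, 2.56, 0.591, 1.21 and 1.33 CPM at 8 wk and 1.74, 4.70 and 3.18 CPM at 24 wk, and those of Pdgfrb 14.2, 12.5, 8.05, 17.3 and 12.8 CPM and then 6.03, 9.97 and 6.12 CPM. Both genes overlapped between the ages. Mylk did not, but the share of all genes without overlap between these ages was not computed. Leaving out 1 library ended the call in 5 of 46 fits for Mylk and in 3 each for Des and Pdgfrb. All 3 calls were lost without the number-2 libraries, which are 3 of the 5 WKY rats at 8 wk, and also with the ribosomal protein level as a covariate. Of all genes, 1831 were called in the main fit, 51 without the number-2 libraries and 186 with the covariate. The call of Mylk was also lost without the 2 CVLM libraries with conflicting ages (0.87, edgeR adjusted p = 0.055), where 1039 of all genes were called.

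Acta2 and Cnn1 were too low for the tests above. Acta2 encodes the actin of smooth muscle and is among the most abundant transcripts of arterioles, yet it had 0 to 6 counts per library (NTS), 0 to 8 (CVLM) and 0 to 11 (RVLM). In the NTS, 2 of 18 WKY libraries and 15 of 28 SHR libraries had 0 counts. Pooled over libraries, Acta2 was at 0.203 CPM in WKY rats and 0.0765 CPM in SHRs in the NTS, 0.336 and 0.0842 CPM in the CVLM, and 0.329 and 0.122 CPM in the RVLM. The WKY level was the higher in each region. Exact 95% Poisson intervals, which cover counting error only, ran from 0.261 to 0.425 CPM in WKY rats and from 0.0545 to 0.124 CPM in SHRs in the CVLM, and those of the NTS (0.146 to 0.276 against 0.0479 to 0.116) and the RVLM (0.256 to 0.416 against 0.0865 to 0.168) did not overlap either. When all genes with a count were tested without the filter, the log2 fold change of Acta2 over the ages was -2.09 in the CVLM (edgeR adjusted p = 0.00105), -1.55 in the RVLM (edgeR adjusted p = 0.0297) and -1.27 in the NTS (edgeR adjusted p = 0.108).

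These values of Acta2 are uncertain, since its coding sequence is nearly the same as that of other muscle actins and reads can be assigned to a copy. Acta1, the actin of skeletal muscle, had 62 to 242 counts per library. Of other genes of skeletal muscle, Ckm had 0 to 8 and Tnnt3 0 to 12 counts, while Myh2, a myosin of skeletal muscle, had 3 to 31 (NTS), 12 to 54 (CVLM) and 1 to 33 (RVLM) and was not called (0.32, 0.07 and 0.18). Acta1 was called in the opposite direction, 0.67 higher in SHRs in the NTS (edgeR adjusted p = 3.41e-06), 0.92 in the CVLM (edgeR adjusted p = 3.16e-10) and 0.78 in the RVLM (edgeR adjusted p = 1.45e-06). In the CVLM, WKY libraries had 68 to 116 counts of Acta1 and SHR libraries 105 to 237. How reads were shared between the actin genes was not tested.

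Cnn1 encodes calponin, an actin-binding protein of the contractile smooth muscle cell. It had 0 to 6 counts (NTS), 0 to 15 (CVLM) and 0 to 17 (RVLM), and 12 of 18 WKY libraries in the NTS were at 0 against 5 of 28 SHR libraries. Its pooled level was higher in SHRs in each region, with 0.104 against 0.219 CPM in the NTS, 0.340 against 0.549 CPM in the CVLM and 0.295 against 0.547 CPM in the RVLM, WKY given first. Without the filter, the log2 fold change over the ages was 1.75 in the NTS (edgeR adjusted p = 0.0418), 0.66 in the CVLM (edgeR adjusted p = 0.227) and 0.66 in the RVLM (edgeR adjusted p = 0.148). With 6 counts at most in an NTS library, the size of the NTS difference is poorly fixed at this depth.

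**Figure D4:**
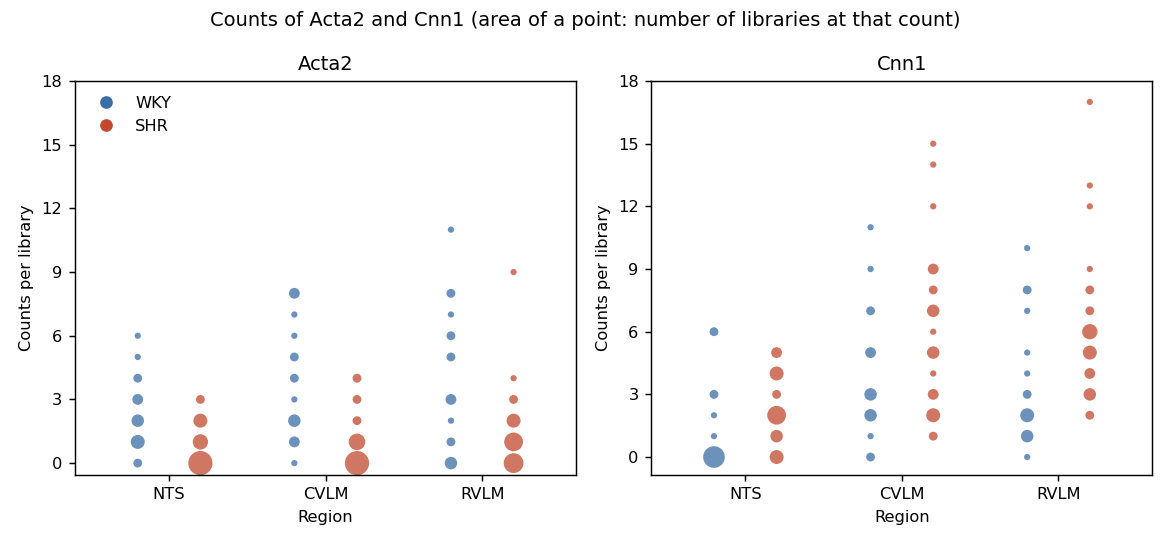
Counts per library (vertical axis) of Acta2 and Cnn1 by region and strain, the area of a point being the number of libraries at that count. For Acta2 most SHR libraries sit at 0 to 2 counts with WKY libraries reaching 11, and for Cnn1 the WKY libraries of the NTS gather at 0 while all SHR libraries of the CVLM and RVLM have 1 count or more.

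Genes of smooth muscle are known to be switched on by serum response factor, which binds the CArG box, a short sequence with an A/T-rich core. The promoters of 6 of the 9 genes were matched in RefSeq on the build GRCr8, and the table gave none for Myh11, Tagln and Pdgfrb. A strict CArG box, on either strand and with no G or C in its core of 6 bases, was found in 0 of the 6 promoters and in 1.64% of 33469 promoters of the same length (250 bases before and 50 after the start). With at most 1 G or C allowed in the core, a search added after the strict one was seen, Acta2 held 2 boxes and the other 5 genes none, and 9.42% of all promoters held one. The 150 bases before the start are shown for Acta2, where both boxes lie (84 and 134 bases before the start), and for comparison for Mylk and Rgs5, the members with the lower and the higher level in SHRs that have a promoter in the table, each 5′ to 3′ on the strand of the gene with CArG boxes in capitals. They are at chr1:241172504-241172653 on the minus strand, chr11:79498575-79498724 on the minus strand and chr13:84380927-84381076 on the plus strand.
Acta2: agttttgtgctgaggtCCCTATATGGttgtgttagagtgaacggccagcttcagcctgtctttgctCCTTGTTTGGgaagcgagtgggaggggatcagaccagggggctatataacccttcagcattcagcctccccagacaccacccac
Mylk: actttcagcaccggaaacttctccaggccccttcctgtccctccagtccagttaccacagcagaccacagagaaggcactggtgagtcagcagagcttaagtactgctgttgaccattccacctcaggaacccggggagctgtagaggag
Rgs5: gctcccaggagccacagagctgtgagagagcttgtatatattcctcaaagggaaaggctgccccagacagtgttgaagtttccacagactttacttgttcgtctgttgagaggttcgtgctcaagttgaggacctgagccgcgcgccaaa
A match is a description of the letters, and the absence of one says only that these letters are not in this window.

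The regions were compared within rats. In both comparisons of the NTS with another region, the genes called other than Mylk were lower in the NTS. Compared with the CVLM, Mylk was 0.71 higher in the NTS (SE 0.10, edgeR adjusted p = 7.4e-09), and Des (-0.58, SE 0.12), Tagln (-0.57, SE 0.069), Rgs5 (-0.25, SE 0.050) and Myh11 (-0.25, SE 0.085) were lower. These 5 of 7 calls stand beside 65.9% of all genes called. Compared with the RVLM, Mylk was 0.82 higher in the NTS (SE 0.11, edgeR adjusted p = 7.8e-11), and Myh11 (-0.66), Des (-0.58), Tagln (-0.39), Rgs5 (-0.30) and Cspg4 (-0.14) were lower, 6 of 7 where 72.7% of all genes were called. Between the CVLM and RVLM, Myh11 was lower in the CVLM (-0.40, SE 0.084, edgeR adjusted p = 2.71e-05) and Tagln higher (0.18, SE 0.069, edgeR adjusted p = 0.024), 2 of 7 against 54% of all. The share of members called was thus near or below that of all genes. The order of the regions for Myh11 was NTS, CVLM and RVLM from low to high, each step called, whereas the CVLM and RVLM did not differ beyond their spread for Mylk, Des and Rgs5. Pdgfrb was not called in any of these comparisons with edgeR (0.14, 0.06 and -0.08), while limma on differences within rats called it higher in the NTS than in the CVLM (0.13, limma adjusted p = 0.0493). That limma call was lost in 29 of the 46 fits that left out 1 rat. Without the filter, Cnn1 was 1.90 lower on the log2 scale in the NTS than in the CVLM (-1.90, edgeR adjusted p = 2.1e-08) and 1.92 lower than in the RVLM (-1.92, edgeR adjusted p = 8.13e-09).

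The members did not vary as 1 group across libraries. After centring on groups of strain and age, and averaging the 3 regions of 46 libraries each, Myh11, Pdgfrb and Cspg4 went together (r = 0.54 for Myh11 and Pdgfrb, 0.52 for Pdgfrb and Cspg4, 0.44 for Myh11 and Cspg4). Tagln went with Rgs5 (0.47), Des (0.36) and Cnn1 (0.32). These partners of Tagln went less with each other (0.11 for Rgs5 and Des, 0.14 for Rgs5 and Cnn1, 0.11 for Des and Cnn1), so they did not form a block. Between Tagln or its partners and Myh11, Pdgfrb or Cspg4, the correlations ran from -0.14 for Tagln and Cspg4 to 0.21 for Myh11 and Cnn1. That of Myh11 and Tagln was -0.08, and Mylk was near 0 with Tagln (0.06) and Myh11 (0.002). Myh11, Pdgfrb and Cspg4 ran opposite to the ribosomal protein level in the NTS and RVLM, and Tagln and its partners mostly with it. The libraries share depth and RNA preparation across all genes. In the same measure, the genes most like Pdgfrb outside the 9 were Jcad (0.68), Cdh5 (0.66), Frmd4b (0.64), Epas1 (0.64) and RGD1308428 (0.63), of which Cdh5 encodes the cadherin of endothelial junctions. For Acta2, with its few counts, the highest were Podxl (0.43), Sec16a (0.39), Elmod3 (0.39), Dlg4 (0.38) and Insr (0.38). For Tagln, added after the data were seen, they were Myl9 (0.74), Mgp (0.66), Crip1 (0.60), Vim (0.58) and Cd63 (0.56).

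**Figure D5:**
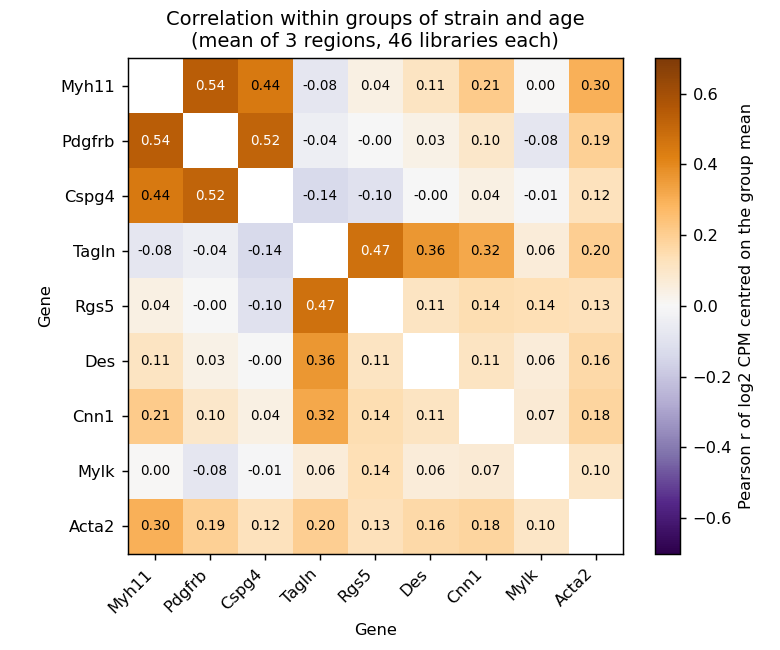
Pearson correlation between the 9 genes of log2 CPM centred on groups of strain and age, averaged over the 3 regions with 46 libraries each. Myh11, Pdgfrb and Cspg4 form 1 block with correlations of 0.44 to 0.54, Tagln and Rgs5 another with 0.47, and the correlations of these 2 genes with the former block run from -0.14 to 0.04.

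Other genes of mural cells were read from lists of known genes. Over all tested genes, 11.2%, 12.3% and 10.8% were called over the ages in the NTS, CVLM and RVLM. Of the other pericyte markers, 3 of 13 tested genes were called over the ages (NTS), 3 of 12 (CVLM) and 3 of 12 (RVLM), with list medians of 0.11, 0.18 and 0.05. Atp13a5, a brain pericyte transporter, was higher in SHRs in all 3 regions (0.59, 0.47 and 0.43), as was Vtn, which encodes vitronectin (0.22, 0.22 and 0.24). Anpep, a pericyte surface peptidase, was higher in the NTS (0.56) and RVLM (0.59), and Cox4i2, a subunit of cytochrome oxidase, was lower in the CVLM (-0.43). Endothelial markers were called in 2, 1 and 4 of 13 (Cdh5 and Tie1 higher in the NTS, Eng in the CVLM, and Tie1, Eng and Kdr higher with Egfl7 lower in the RVLM), all by less than 0.40 on the log2 scale. Their summed level was 338 to 482 CPM in WKY rats and 333 to 645 CPM in SHRs in the NTS, 403 to 571 and 414 to 579 CPM in the CVLM, and 383 to 615 and 384 to 616 CPM in the RVLM. The ranges of the strains overlapped in each region, with the highest NTS values in SHRs, and their part in the member results was not tested. The endothelial counts called in the NTS and CVLM were near the share of all genes.

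The contractile genes did not move one way. Of 16, 17 and 17 tested in the NTS, CVLM and RVLM, 2, 2 and 3 were higher and 1, 3 and 2 lower in SHRs. Of all tested genes, 11.2%, 12.3% and 10.8% were called over the ages in these regions. Myl9, the smooth muscle light chain that is the substrate of the kinase, was lower in all 3 regions (-0.33, -0.49 and -0.44), although across libraries of a group it had the highest correlation with Tagln. Lmod1, a leiomodin of smooth muscle, was lower in the CVLM (-0.51) and RVLM (-0.53). Pdlim3 was higher in both (1.07 and 1.32), as was Synpo2 (0.75 and 0.85), while Tpm2, a tropomyosin, was higher in the NTS (0.64). Among 11 genes that regulate the myosin light chain, Gucy1a1, a subunit of the nitric oxide receptor, was higher in all 3 regions (0.39, 0.51 and 0.69), and Ppp1cb, the catalytic subunit of myosin phosphatase, in the NTS (0.26) and CVLM (0.22). None of 13 genes of PDGF and Notch signalling was called over the ages in any region with edgeR, and 1, 2 and 1 of them had an unadjusted p under 0.05. At single ages, 1 of the 13 was called in the NTS at 8 wk (5.79% of all genes called). In the RVLM at 8 wk, 2 of the 13 were called (9.78% of all), 1 higher and 1 lower in SHRs.

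Markers of other cells were read in the comparison of the strains over the ages. There, 11.2%, 12.3% and 10.8% of all tested genes were called in the NTS, CVLM and RVLM. A count of 1 in a list of 7 to 11 genes is near these shares. Leptomeninges and fibroblasts had 0, 1 and 1 of 11 genes called, and their sum was 70.9 to 215 CPM in WKY rats and 73.0 to 150 CPM in SHRs in the NTS. Oligodendrocyte precursors had 1 of 8 in each region (Ptprz1, higher), oligodendrocytes 2, 4 and 3 of 7 (Mobp lower in each), astrocytes 0, 0 and 1 of 6, neurons 0 of 5 in each (1 of 5 in each at an unadjusted p under 0.05), microglia 1, 2 and 1 of 7 (Tmem119 lower in each) and catecholamine neurons 0 of 7, 6 and 6 (5, 0 and 2 at an unadjusted p under 0.05). Choroid plexus had 3 of 5 (Ttr, Folr1 and Clic6, lower in SHRs), 1 of 2 (Kl, higher) and 0 of 1, with a list median of -1.66 in the NTS, where 4 WKY libraries held high levels. Skeletal muscle had 1 of 2 in each (Acta1). Blood cell genes were lower in SHRs in 2, 4 and 4 of 5 (Hba-a1 by -0.70, -1.13 and -0.90), and their sum was 312 to 1955 CPM in WKY rats and 170 to 904 CPM in SHRs in the CVLM. Blood genes thus moved with strain as Mylk did and opposite to Tagln. Within groups of strain and age, their median correlation was 0.26 with Tagln, 0.40 with Rgs5 and 0.11 with Mylk. It was -0.25 with Myh11, -0.19 with Pdgfrb and -0.23 with Cspg4. The part of blood genes in these results was not tested.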

How the data were processed

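Punched NTS, CVLM and RVLM tissue of 46 female rats, SHRs and WKY rats, was sequenced (1 library per rat and region, separate rats within a group). STAR (mapping, on rn6) and RSEM (quantification) are the tools in the methods. The values deposited by the authors are RSEM's expected counts per gene, not normalized, in 1 table of 32883 genes per region. The methods also name a batch adjustment with ComBat_seq, and whether the tables include it is not given in the sources used here. Strand of the libraries is not given there either.

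Values were rounded to whole numbers. Within a region, genes with a highest rlog value (DESeq2 1.42.0) of at least 3.5 were tested, which left 13793, 13408 and 13411 genes. In R 4.3.3, edgeR 4.0.16 (TMM, estimateDisp, robust glmQLFit, glmQLFTest) fitted 46 libraries per region in 10 groups of strain and age. Contrasts were the strain difference at each age and over the ages, its interaction with age, and 24 against 8 wk within a strain. Regions were compared in 1 fit of the libraries of all regions with the rat as a block (14043 genes). P-values were adjusted over all genes, and genes were called under 0.05. All 9 members are named in every region, list genes only where called over the ages, and like genes as the 5 highest correlations for Pdgfrb and Acta2. Correlations used log2 CPM. The members and lists were chosen with earlier results of these data known. The code recovered 100 of 100 genes simulated with a 2-fold change and 98 of 100 with a 1.5-fold change in the NTS strain comparison over the ages (13793 genes). Of the genes simulated without a change, 8 were called. The changed genes were drawn from the more abundant ones, with the same dispersion for all genes and the same change at all ages. The simulation thus does not cover the lowest genes or tests at single ages.

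Alternatives were DESeq2, size factors in place of TMM, no filter, a stricter threshold, a replicate block, the library-name number as a term or its number-2 libraries left out, each age fitted alone, the 2 CVLM libraries with conflicting ages left out (placed at 8 wk otherwise), each library left out, and, for regions, limma 3.58.1. The ribosomal protein covariate, limma on differences within rats and leaving out the 4 NTS libraries with choroid plexus markers above 200 CPM were chosen after seeing the data. Among 270 pairs of libraries in a group, none was a repeat (lowest chi-square per gene 4.95).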

Additional observations from a re-analysis of the deposited data

Results flagged for a closer look

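Among 147 groups of 4 to 6 rats, 12 held a value that stood apart by Dixon's criterion, which chance meets in about 1 of 20 groups. Des, at few counts, gave 6 of them. It was high in the NTS of 1 SHR at 8 wk (replicate 5, 5.14 CPM) and in the CVLM of 1 SHR at 8 wk (replicate 3, 3.78 CPM) and 1 at 24 wk (replicate 5, 3.96 CPM). It was low in the NTS of SHR replicate 5 at 10 wk (0.497 CPM) and replicate 3 at 16 wk (0.736 CPM) and in the CVLM of SHR replicate 4 at 10 wk (0.742 CPM). Rgs5 was high in the NTS of SHR replicate 1 at 10 wk (11.8 CPM) and low in the RVLM of SHR replicate 1 at 8 wk (13.0 CPM) and replicate 3 at 24 wk (10.6 CPM), the former still above all WKY rats of its age. Cspg4 was high in the RVLM of SHR replicate 2 at 10 wk (13.3 CPM). Tagln was high in the CVLM of WKY replicate 2 at 8 wk (20.7 CPM), where the other 4 WKY rats were at 10.7 to 11.1 CPM. Mylk reached 14.2 CPM in the RVLM library that stood apart (WKY replicate 3 at 8 wk), where the next value was 3.62 CPM.

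The strain difference of Tagln was 0.66 larger on the log2 scale in the NTS than in the RVLM (edgeR adjusted p = 0.00171), the only strain difference of a member that differed between regions in edgeR's test of the difference itself. In limma voom with duplicateCorrelation, that of Mylk also differed between the CVLM and RVLM (-0.76, adjusted p = 0.0258).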

How the results depend on the processing

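Counts of called members were recomputed under each alternative, and 194 of 220 such values stayed within 1.5 times the count reported above. Counts of 0 that stayed at 0 are among these 194, and an equal count need not stand for the same genes. No call changed direction. Over the ages, Tagln and Mylk in the NTS and CVLM, and Tagln and Rgs5 in the RVLM, had an adjusted p under 0.05 in every fit run. An adjusted p of at most 0.01 with a log2 fold change of at least 1 left 4 of 8 calls at single ages in the CVLM and 0 of 3 in the RVLM, 1 of 2 over the ages in the CVLM and 0 of 4 in the RVLM, 0 of 3 for WKY rats at 24 against 8 wk in the CVLM, 0 of 5, 0 of 6 and 0 of 2 between regions (NTS and CVLM, NTS and RVLM, CVLM and RVLM), and 0 of 1 for the strain difference between the NTS and RVLM. Without the number-2 libraries outside 10 wk, 5 of 8 calls at single ages stayed in the CVLM, 0 of 3 in the RVLM and 0 of 3 for WKY rats by age in the CVLM, and with the number as a term the RVLM calls at single ages (0) and the WKY calls by age (0) were lost as well. Calls over all genes fell in these fits too. At 8 wk in the RVLM, 1311 calls fell to 230 without these libraries and to 372 with the number as a term. For WKY rats by age in the CVLM, 1831 calls fell to 51 and 217. Fitting each age alone gave 5 calls in the CVLM and 1 in the RVLM. The ribosomal protein covariate left 0 of 3 WKY calls by age in the CVLM, where calls over all genes fell from 1831 to 186. DESeq2 gave 1 call for WKY rats by age in the NTS (Tagln, 0.82, adjusted p = 0.018) where edgeR gave 0, and limma voom with duplicateCorrelation gave 1 strain difference between the CVLM and RVLM (Mylk, -0.76, adjusted p = 0.0258) where edgeR gave 0. The causes were not tested.

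The replicate number as a block left 2 of 4 calls over the ages in the RVLM, with Mylk at -0.57 (edgeR adjusted p = 0.0502) and Myh11 at 0.42 (edgeR adjusted p = 0.0574), and added Rgs5 in the CVLM (0.29, edgeR adjusted p = 0.0227). At single ages the block ended the calls of Mylk in the CVLM at 16 wk (-0.98, edgeR adjusted p = 0.0855), Pdgfrb in the CVLM at 24 wk (0.76, edgeR adjusted p = 0.0538) and Myh11 in the RVLM at 8 wk (0.80, edgeR adjusted p = 0.059) and added Tagln in the NTS at 12 wk (0.73, edgeR adjusted p = 0.0422). Rats with the same number were not taken as pairs in the main fits. Of 54 pairs of a WKY rat and an SHR with the same number, 33 had a correlation above 0.1 (median 0.17, range -0.37 to 0.59). Rats with different numbers were not correlated, so these values cannot decide whether the number marks a shared factor.

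Leaving out each library in turn, calls at single ages ran from 7 to 9 (NTS), 6 to 9 (CVLM) and 0 to 3 (RVLM), those over the ages from 2 to 3, 2 to 3 and 4 to 4, and those of WKY rats by age from 0 to 1 in the NTS and 0 to 3 in the CVLM. In limma on differences within rats, leaving out each rat gave 5 to 6, 5 to 6 and 1 to 3 calls between regions and 0 to 1, 1 to 1 and 0 to 1 strain differences between regions. The same with edgeR was not run. Of the 31 called member results within regions, 17 kept their call in every such fit and none changed sign. Depth limits Acta2 and Cnn1, with at most 11 and 17 counts in a library.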
